A study of Mus musculus with 6 samples.

Results

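The genes described here are 42 genes of late G2 phase and mitosis, a list that runs from the cyclins and Cdk1 through the kinetochore, the spindle checkpoint and the spindle motors to cytokinesis and chromosome structure. They were picked as the rows of the deposited count table whose gene symbol equals a listed symbol. That rule reads no measured value, but the list was drawn up with earlier results of these data known. All 42 were among the 23337 counted genes, and all 42 were among the 12477 genes that passed the filter on low counts. RNA was measured in mouse HSPCs (hematopoietic stem and progenitor cells) that carry MLL-AF9, a leukemia fusion gene present in both groups. One group had been kept in pro-lymphoid culture (3 libraries, replicates 1, 5 and 6) and the other in pro-myeloid culture (3 libraries, replicates 2, 3 and 4). The labels give no strain, age, cytokines or duration of culture, and they do not say whether the libraries of a group came from separate animals, clones or cultures. The p-values therefore rest on the scatter of these 6 libraries alone, some or all of which may be technical. The libraries held 34972488 to 46724382 counts assigned to genes, and no pair of libraries within a group agreed within counting noise.

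Entry into mitosis is driven by Cdk1 bound to a B-type cyclin, after Cdc25 phosphatases remove inhibitory phosphates from the kinase. Chromosomes are then compacted by condensin and attached to the spindle through kinetochores, the spindle checkpoint holds the anaphase-promoting complex (APC/C) until every kinetochore is attached, and separase then cuts the cohesin that joins sister chromatids. Many of these genes are repressed in resting cells and switched on in late cell cycle through promoters bound by MuvB complexes and NF-Y, and their summed RNA is widely read as a measure of how much of a cell population is in G2 and mitosis.

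The promoters of the members shared short sequence features that the choice of genes did not use. RefSeq promoter sequences of mouse build GRCm38.p6, the assembly behind mm10, from 250 bases before to 50 bases after the start of a gene, could be matched for 33 members with 34 promoters. They were searched on both strands for TTTGAA and TTCGAA, the core of the cell cycle genes homology region (CHR) that MuvB complexes bind, and for CCAAT, the box bound by NF-Y. The 100 bases before the start are shown for 6 members, read along the gene's strand, with matches on either strand in capitals (ATTGG and TTCAAA are CCAAT and TTTGAA on the opposite strand). Cdk1, Cdc20 and Top2a show the arrangement of both motifs close to the start, Espl1 and Kif23 are 2 of the members that rose in pro-lymphoid culture, and Nuf2, which also rose, held none of the 3 motifs in its whole window.
Cdk1, chr10:69352913-69353012, minus strand: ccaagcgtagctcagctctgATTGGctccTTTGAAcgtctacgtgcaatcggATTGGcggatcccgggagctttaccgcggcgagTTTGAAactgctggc
Cdc20, chr4:118437344-118437443, minus strand: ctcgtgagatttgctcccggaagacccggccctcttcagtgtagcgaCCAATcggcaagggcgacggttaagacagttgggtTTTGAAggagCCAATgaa
Top2a, chr11:99024190-99024289, minus strand: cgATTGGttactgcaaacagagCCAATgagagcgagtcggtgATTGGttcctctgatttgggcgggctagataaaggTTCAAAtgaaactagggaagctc
Espl1, chr15:102296193-102296292, plus strand: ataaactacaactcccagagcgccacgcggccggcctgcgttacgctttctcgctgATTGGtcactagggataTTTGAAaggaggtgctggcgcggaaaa
Kif23, chr9:61946800-61946899, minus strand: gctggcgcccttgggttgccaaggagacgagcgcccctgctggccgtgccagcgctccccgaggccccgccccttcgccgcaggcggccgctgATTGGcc
Nuf2, chr1:169531465-169531564, minus strand: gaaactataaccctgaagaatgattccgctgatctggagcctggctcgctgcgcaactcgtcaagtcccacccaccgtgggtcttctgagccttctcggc

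TTTGAA was found in 25 of the 34 member promoters (73.5%), against 17.9% of all 32851 promoters in the table. TTCGAA was found in 4 member promoters (11.8%), against 1.56% of all promoters. CCAAT was found in 27 (79.4%), against 37.4% of all promoters, and 17 (50%) held at least 2 CCAAT boxes, against 11.7%. A CHR core together with CCAAT was present in 24 (70.6%), against 7.52% of all promoters. Matches of different motifs overlapped at 1 place in the member promoters. Of the 32 TTTGAA matches in member promoters, 23 (71.9%) lay from 50 bases before the start onward, against 25.3% of those in all promoters. The TTTGAA of Kif23 lies just after the start, outside the stretch shown. TTTGAA was present in 4 of the 7 promoters of members that rose in pro-lymphoid culture and in 21 of the 27 promoters of the other members. Aurkb, which also rose, had no matched promoter, and Prc1 was counted with 2 overlapping promoters among the others. Without TTTGAA, Cdc25b of the members that rose and Bub1 of the others held TTCGAA. A match describes these letters only, and binding was not measured.

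Between the cultures, most of the 42 genes leaned in the same direction, by a modest amount. The log2 fold change of pro-lymphoid over pro-myeloid culture was above 0 for 38 of 42 members (90.5%), against 50% of all genes tested, and its median was 0.44 (quartiles 0.29 and 0.52), against -0.0002 for all genes. By edgeR's quasi-likelihood test with Benjamini-Hochberg adjustment over all 12477 genes, at an adjusted p of 0.05, 8 members (19%) rose in pro-lymphoid culture, against 17.4% of all genes, a share near that background. They were the Cdk1-activating phosphatase Cdc25b, the centrosome kinase Nek2, Aurkb, Cenpa, Nuf2, the separase Espl1, the cytokinesis motor Kif23 and the condensin subunit Ncapd2. One member, the condensin core subunit Smc4, fell (2.38%, against 21.3% of all genes), and 33 passed in neither direction. All 3 pro-lymphoid libraries were above all 3 pro-myeloid libraries for 20 members (47.6%), against 26.4% of all genes, and below them for 1 member, against 27.2%. These are bulk libraries, in which fewer cells in mitosis and less RNA per cell cannot be told apart.

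**Figure D1:**
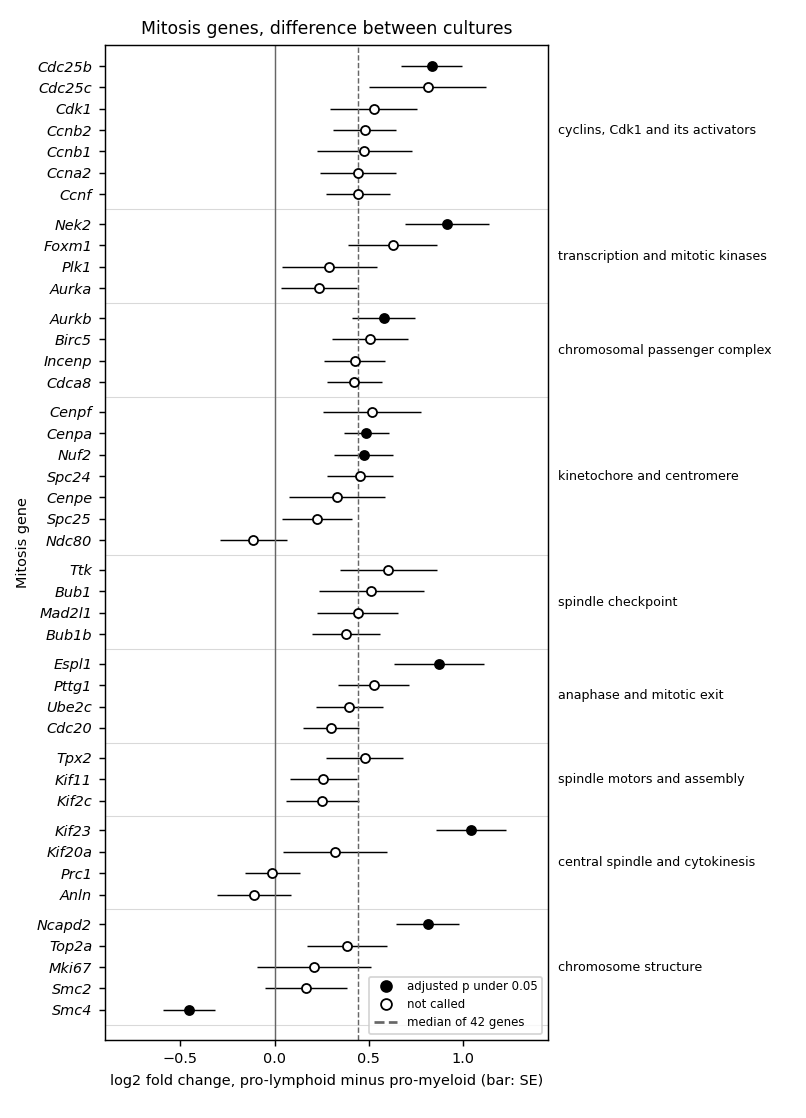
Log2 fold change of each mitosis gene, pro-lymphoid minus pro-myeloid culture, with its SE as a bar, grouped by role. Filled points mark the 9 genes at an edgeR adjusted p under 0.05, and the dashed line marks the median of the 42 genes at 0.44.

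How many members passed the test depended on single libraries. Without pro-myeloid replicate 2, 24 members rose (19.4% of all genes in that fit) and 0 fell in edgeR, with 1 member lower at an unadjusted p under 0.05 (Smc4, adjusted p = 0.0623), and the median log2 fold change was 0.61. Without pro-myeloid replicate 3, 6 members rose (13.2% of all genes) and the median was 0.27. Leaving out pro-lymphoid replicate 1, 5 or 6 left 5, 4 and 4 members that rose (14.7%, 11.5% and 10.2% of all genes). Without pro-myeloid replicate 4, 7 rose (11% of all genes). Smc4 fell without pro-myeloid replicate 3 (17.6% of all genes fell there) but did not pass without pro-lymphoid replicate 1, 5 or 6 or pro-myeloid replicate 2 or 4, in fits in which 18.7%, 16.3%, 14%, 22.8% and 16.6% of all genes fell. The tool and the scaling also moved the count: 13 members rose by DESeq2 (20.2% of all genes), 15 with upper-quartile scaling (20% of all genes) and 3 at an adjusted p of 0.01 (7.97% of all genes). Cdc25b, Kif23 and Ncapd2 rose in every one of these fits.

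The pro-myeloid libraries differed from each other more than the pro-lymphoid libraries did. The median deviation of the members from each gene's mean over the 6 libraries, on the log2 CPM scale (CPM, counts scaled by edgeR's TMM factors to a common library size), was 0.14, 0.27 and 0.26 in pro-lymphoid replicates 1, 5 and 6. In pro-myeloid replicates 2, 3 and 4 it was 0.12, -0.60 and -0.13. Pro-myeloid replicate 3 was thus the low library for these genes. It held the lowest value of 39 of the 42 members, and the other 3 lowest values were in pro-myeloid replicate 4 (Cdc25b and Pttg1) and pro-lymphoid replicate 1 (Smc4). By the chi-square per degree of freedom between the counts of 2 libraries, however, pro-myeloid replicate 2 stood farthest from its group. That value was 196 against replicate 3 and 156 against replicate 4, while replicates 3 and 4 were at 70.15. Pro-lymphoid replicate 5 held the highest value of 18 members, replicate 6 of 10 and replicate 1 of 6, while pro-myeloid replicate 2 held the highest of 7, replicate 4 of 1 and replicate 3 of 0.

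Set against the range of the pro-lymphoid libraries, pro-myeloid replicate 2 was below it for 20 members, within it for 14 and above it for 8. Those 8 were Ndc80, Kif2c, Kif20a, Prc1, Anln, Mki67, Smc2 and Smc4. Pro-myeloid replicate 3 was below the pro-lymphoid range for 41 members and above it for Smc4. Pro-myeloid replicate 4 was below it for 36, within it for 3 and above it for 3. Over all genes, 37.6% to 40.3% were below the pro-lymphoid range in each pro-myeloid library. As a sum, the 42 genes took 0.741%, 0.761% and 0.768% of all CPM in pro-lymphoid replicates 1, 5 and 6, against 0.742%, 0.448% and 0.592% in pro-myeloid replicates 2, 3 and 4.

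**Figure D2:**
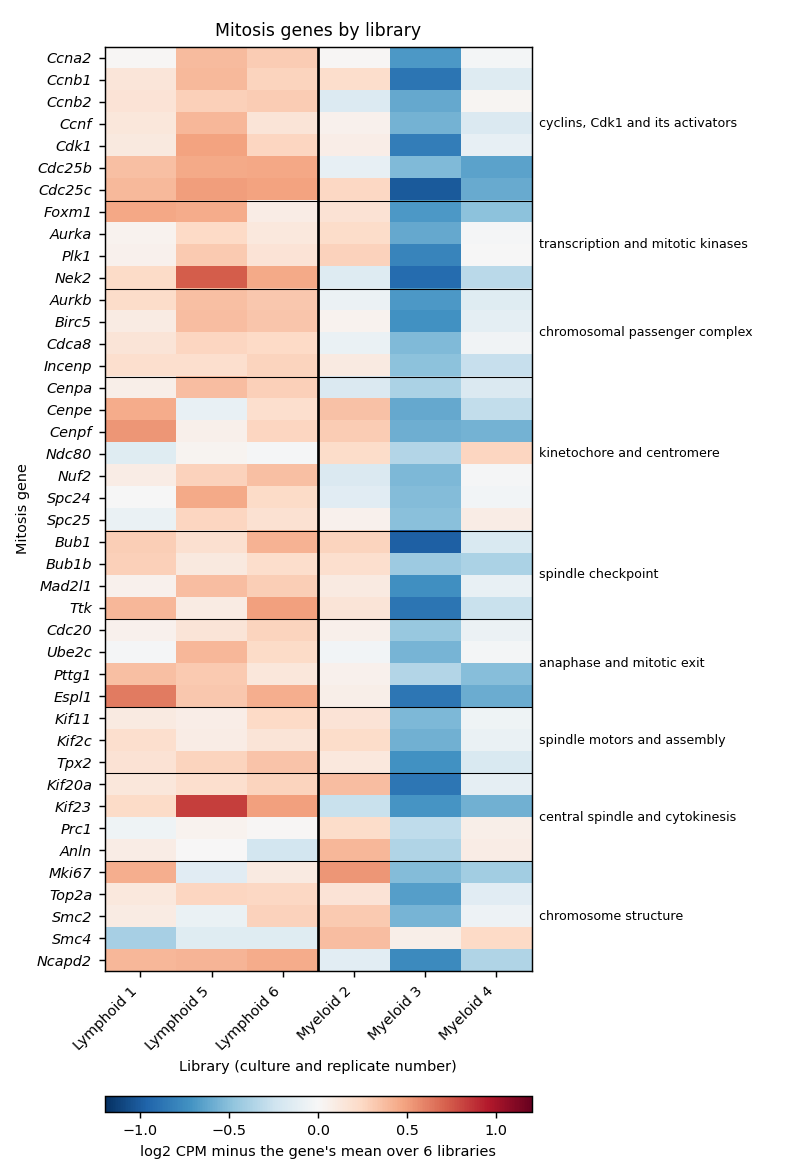
Log2 CPM of each mitosis gene minus its mean over the 6 libraries, pro-lymphoid libraries left and pro-myeloid libraries right of the line. The column of pro-myeloid replicate 3 holds the lowest value of 39 of 42 genes, while pro-myeloid replicate 2 holds the highest value of 7.

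Markers of the labelled cell type were present in both cultures. The 8 HSPC markers, among them Kit, Cd34 and Ptprc, summed to 1854 to 2109 CPM in pro-lymphoid libraries and 1857 to 1981 CPM in pro-myeloid libraries. Their sums were close, but single markers went opposite ways: 3 of the 8 rose in pro-lymphoid culture by edgeR and 4 fell. Flt3, a receptor of early progenitors, averaged 433.9 ± 67.1 CPM in pro-lymphoid and 13.9 ± 15.3 CPM in pro-myeloid libraries (31.5-fold, edgeR adjusted p = 0.00730), and Kit (3.34-fold, adjusted p = 0.0141) and Cd34 (2.63-fold, adjusted p = 0.00766) rose with it. Hoxa9, Meis1, Myb and Ptprc fell, with log2 fold changes of -0.95, -1.44, -1.05 and -0.38 (edgeR adjusted p of 0.0469 or less), and Spn passed in neither direction. The 12 neutrophil-lineage markers summed to 163 to 367 CPM in pro-lymphoid libraries, against 4783 to 9196 CPM in pro-myeloid libraries, with Retnlg at 0 in all. All 8 of them that passed the filter fell in pro-lymphoid culture. Among pro-myeloid libraries the neutrophil sum was 4783 CPM in replicate 2, 6643 CPM in replicate 3 and 9196 CPM in replicate 4. Mpo took much of that difference, at 148, 1512 and 3305 CPM in the same order. Elane had 1462, 1323 and 1744 CPM, Ctsg 1908, 1934 and 2387 CPM and Prtn3 1013, 1658 and 1507 CPM. Lcn2 went the other way, at 247, 175 and 124 CPM. S100a8, S100a9 and Ngp increased in that order, but only to 61.0 CPM or less. Camp, Ltf and Mmp9 stayed at 0.802 CPM or less. The 10 monocyte and macrophage markers summed to 355 to 1235 CPM in pro-lymphoid and 1128 to 2057 CPM in pro-myeloid libraries. The 7 B cell markers stayed at 24.6 to 34.7 CPM in pro-lymphoid and 28.8 to 52.3 CPM in pro-myeloid libraries, and T and NK cell, erythroid and stromal marker sums were under 20 CPM in all 6. The part of these lineage markers in the values of the mitosis genes was not tested.

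The cyclins, Cdk1 and its activating phosphatases lay together on the pro-lymphoid side. All 7 had a log2 fold change above 0 (median 0.48), and 1 of 7, Cdc25b, rose (14.3%, against 17.4% of all genes). In 6 of 7 (85.7%, all but Ccnb1) every pro-lymphoid library was above every pro-myeloid library, against 26.4% of all genes. For Ccna2, counted among these 6, the nearest libraries of the groups were level. These 2 backgrounds hold for every role group that follows. Cdc25b, which starts the activation of cyclin B and Cdk1 at the centrosome, had 50.8, 54.0 and 54.3 CPM in pro-lymphoid replicates 1, 5 and 6 and 36.8, 27.3 and 25.4 CPM in pro-myeloid replicates 2, 3 and 4. The lowest pro-lymphoid library stood well above the highest pro-myeloid library. The fold was 1.78 (log2 0.83, SE 0.16, edgeR adjusted p = 0.00687), and the gene lies on chromosome 2 from 131186948 to 131198511 in mm10.

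Ccnb1, the main mitotic cyclin, had 182, 216 and 198 CPM in pro-lymphoid replicates 1, 5 and 6, against 190.4, 89.6 and 148 CPM in pro-myeloid replicates 2, 3 and 4. Pro-myeloid replicate 2 fell inside the pro-lymphoid range, and the log2 fold change was 0.48 (SE 0.25, edgeR adjusted p = 0.173). Its partner Cdk1 had 141, 182 and 156 CPM in the pro-lymphoid libraries and 138, 73.3 and 122 CPM in the pro-myeloid libraries in the same replicate order. The groups did not overlap, but pro-myeloid replicate 2 came within a few CPM of pro-lymphoid replicate 1, and the log2 fold change of 0.53 (SE 0.23) had an edgeR adjusted p of 0.112. Without pro-myeloid replicate 2, Ccnb1 rose by 0.74 (adjusted p = 0.0313) and Cdk1 by 0.71 (adjusted p = 0.0440) on the log2 scale in edgeR. Leaving out pro-myeloid replicate 3 instead gave 0.23 for Ccnb1 (edgeR adjusted p = 0.285) and 0.30 for Cdk1 (0.162).

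Ccnf, the cyclin F of an SCF ubiquitin ligase, showed the smallest difference of this group, with 113.5, 136 and 115 CPM in pro-lymphoid libraries and 107, 69.9 and 91.6 CPM in pro-myeloid libraries (log2 0.44, SE 0.17, edgeR adjusted p = 0.0761). Ccnb2, a second B-type cyclin, averaged 163 ± 8.57 CPM in pro-lymphoid and 117 ± 25.2 CPM in pro-myeloid libraries (SD, n = 3 each), with an edgeR adjusted p of 0.0570 that became 0.0429 without pro-myeloid replicate 4. Ccna2, the cyclin of S and G2 phase, averaged 199 ± 26.1 CPM in pro-lymphoid and 147 ± 36.5 CPM in pro-myeloid libraries. Its log2 fold change was level with that of Ccnf at 0.44 (edgeR adjusted p = 0.124). Pro-lymphoid replicate 1 had 169.9 CPM and pro-myeloid replicate 2 had 169.7 CPM, so the groups were barely apart. Of the exon bases of Ccna2, 13.4% are shared with Exosc9, so its count is uncertain by an amount that was not measured. Cdc25c, a phosphatase that acts on Cdk1 at mitotic entry, was the lowest of the 42 in CPM, with 21.6 ± 0.881 CPM in pro-lymphoid and 12.3 ± 5.71 CPM in pro-myeloid libraries (log2 0.81, SE 0.31, edgeR adjusted p = 0.0736). The spread of Cdc25c among pro-myeloid libraries was wide, and without replicate 2 its log2 fold change was 1.24 (edgeR adjusted p = 0.00256). Ccnf also passed without that library, at 0.59 (adjusted p = 0.0243). Leaving out pro-myeloid replicate 3 instead gave 0.57 for Cdc25c and 0.29 for Ccnf, and neither passed (edgeR adjusted p of 0.153 and 0.150).

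**Figure D3:**
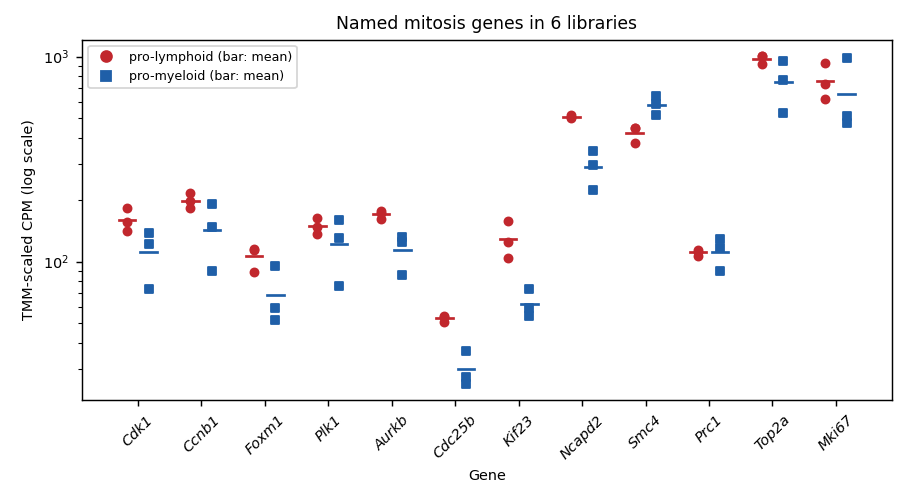
TMM-scaled CPM, on a log axis, of 12 named mitosis genes in each library, with the group mean as a bar, pro-lymphoid left of pro-myeloid for each gene. Cdc25b, Kif23 and Ncapd2 separate the cultures in one direction and Smc4 in the other, while Ccnb1, Foxm1, Plk1, Prc1, Top2a and Mki67 overlap.

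The mitotic transcription factor and kinases differed among themselves. All 4 had a log2 fold change above 0 (median 0.46), but only Nek2, a kinase that separates centrosomes, had groups that did not overlap and passed the test. Nek2 had 74.2, 105 and 87.0 CPM in pro-lymphoid replicates 1, 5 and 6, against 57.1, 33.4 and 50.6 CPM in pro-myeloid replicates 2, 3 and 4. It rose 1.88-fold (log2 0.91, SE 0.22, edgeR adjusted p = 0.0156), with an adjusted p of 0.0530 once pro-lymphoid replicate 5, the highest library, was left out. Nek2 lies on chromosome 1 from 191821473 to 191833049. Foxm1, the factor that with B-Myb turns on G2 and mitosis genes, had 115, 114 and 89.0 CPM in pro-lymphoid libraries and 94.8, 52.1 and 59.6 CPM in pro-myeloid libraries. Pro-lymphoid replicate 6 was below pro-myeloid replicate 2, and the log2 fold change of 0.63 (SE 0.23) had an edgeR adjusted p of 0.0705, or 0.00410 at 0.93 without pro-myeloid replicate 2. Without pro-myeloid replicate 3 the log2 fold change of Foxm1 was 0.46 (edgeR adjusted p = 0.170).

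Plk1, the polo kinase of mitotic entry and spindle assembly, had 136, 164 and 147 CPM in pro-lymphoid replicates 1, 5 and 6 and 159, 75.8 and 131 CPM in pro-myeloid replicates 2, 3 and 4. Only pro-myeloid replicate 3 stood clearly below the others, and the log2 fold change was 0.29 (SE 0.25, edgeR adjusted p = 0.393), or 0.04 without that library. Aurka, the spindle pole kinase, had 104, 119 and 110.3 CPM in pro-lymphoid libraries and 117, 65.9 and 99.9 CPM in pro-myeloid libraries (log2 0.24, SE 0.20, edgeR adjusted p = 0.394). Here too the low library was pro-myeloid replicate 3.

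The chromosomal passenger complex, which corrects faulty attachments and then moves to the midzone, was the most even of the groups. All 4 subunits had every pro-lymphoid library above every pro-myeloid library, against 26.4% of all genes. Their log2 fold changes ran from 0.42 to 0.58, and 1 of 4, the kinase Aurkb, rose, against 17.4% of all genes. Aurkb had 161, 177.5 and 173.5 CPM in pro-lymphoid replicates 1, 5 and 6, against 132, 85.9 and 125 CPM in pro-myeloid replicates 2, 3 and 4. The fold was 1.49 (log2 0.58, SE 0.17, edgeR adjusted p = 0.0315), and the gene lies on chromosome 11 from 69045643 to 69051662. The Aurkb call was lost in edgeR without pro-lymphoid replicate 1 (adjusted p = 0.0544), 5 (0.0877) or 6 (0.0944) and without pro-myeloid replicate 4 (0.0627), while its log2 fold change stayed between 0.55 and 0.64 in those fits.

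Cdca8, which encodes the subunit borealin, had the smallest difference of the complex, with 143, 154 and 152 CPM in pro-lymphoid libraries and 122, 89.0 and 124.5 CPM in pro-myeloid libraries (log2 0.42, SE 0.15, edgeR adjusted p = 0.0548). Birc5, which encodes survivin, averaged 136 ± 13.6 CPM in pro-lymphoid and 95.5 ± 24.8 CPM in pro-myeloid libraries (edgeR adjusted p = 0.0826). Incenp, the scaffold of the complex, averaged 265 ± 7.03 CPM in pro-lymphoid and 197 ± 42.5 CPM in pro-myeloid libraries (edgeR adjusted p = 0.0720). All 3 passed without pro-myeloid replicate 2, with edgeR adjusted p of 0.0463 for Cdca8, 0.0327 for Birc5 and 0.00700 for Incenp. None of them passed without pro-myeloid replicate 3 (edgeR adjusted p of 0.0807, 0.119 and 0.161 in the same order).

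At the kinetochore and centromere, 6 of 7 genes had a log2 fold change above 0 (median 0.45) and 2 rose. Cenpa, the histone variant that marks centromeres, had 141, 173 and 163.5 CPM in pro-lymphoid replicates 1, 5 and 6, against 119, 103 and 119 CPM in pro-myeloid replicates 2, 3 and 4. It rose 1.40-fold (log2 0.49, SE 0.12, edgeR adjusted p = 0.0172), and it lies on chromosome 5 from 30666902 to 30674826. Pro-myeloid replicate 3 was less far from the other pro-myeloid libraries for Cenpa than for most members. The call was lost in edgeR without pro-lymphoid replicate 5 (adjusted p = 0.0658) or 6 (0.0674).

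Nuf2, a subunit of the Ndc80 complex that binds microtubules, had 86.5, 97.98 and 104 CPM in pro-lymphoid libraries and 71.8, 56.0 and 80.4 CPM in pro-myeloid libraries. It rose 1.39-fold (log2 0.47, SE 0.16, edgeR adjusted p = 0.0479), close to the threshold, and lies on chromosome 1 from 169497934 to 169531464. The Nuf2 call was lost in edgeR without pro-lymphoid replicate 1 (adjusted p = 0.0547), 5 (0.115) or 6 (0.154) and without pro-myeloid replicate 2 (0.0631) or 3 (0.0957). It was also lost with no filter on low counts (0.0592), with an older quasi-dispersion of edgeR (0.0518) and at the stricter threshold of 0.01. The call of Nuf2 thus held in 7 of 15 alternatives. Its partner Ndc80, the subunit for which the complex is named, stood apart from it, with 46.3, 52.4 and 50.6 CPM in pro-lymphoid libraries and 59.8, 40.2 and 61.3 CPM in pro-myeloid libraries. Pro-myeloid replicates 2 and 4 were above all pro-lymphoid libraries and replicate 3 was below them, and the log2 fold change was -0.11 (SE 0.18, edgeR adjusted p = 0.645). The remaining subunits of the complex, Spc24 and Spc25, averaged 61.0 ± 9.53 and 49.0 ± 5.83 CPM in pro-lymphoid libraries and 44.6 ± 7.58 and 41.9 ± 8.94 CPM in pro-myeloid libraries (edgeR adjusted p of 0.0786 and 0.374). Whether the 4 subunits of this complex differed from each other was not tested.

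Cenpf, a large protein of the outer kinetochore, had the highest log2 fold change of this group, with 119, 85.7 and 98.6 CPM in pro-lymphoid libraries and 101, 54.8 and 55.7 CPM in pro-myeloid libraries. Pro-myeloid replicate 2 lay within the pro-lymphoid range, and the log2 fold change of 0.52 (SE 0.26) had an edgeR adjusted p of 0.155, or 0.00564 at 0.87 without that library. The kinetochore motor Cenpe averaged 124 ± 22.6 CPM in pro-lymphoid and 98.3 ± 34.9 CPM in pro-myeloid libraries (edgeR adjusted p = 0.342, or 0.0293 without pro-myeloid replicate 2). Leaving out pro-myeloid replicate 3 instead gave log2 fold changes of 0.36 for Cenpf and 0.14 for Cenpe, and neither passed (edgeR adjusted p of 0.347 and 0.693).

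No spindle checkpoint gene passed the edgeR test: 0 of 4 at the adjusted threshold, with 1 higher in pro-lymphoid culture at an unadjusted p under 0.05, and 0 by DESeq2 and by limma-voom. All 4 had a log2 fold change above 0 (median 0.48), and all 4 had overlapping groups. Ttk, the kinase Mps1 that starts the checkpoint, had 48.0, 38.9 and 51.1 CPM in pro-lymphoid replicates 1, 5 and 6, against 40.7, 19.8 and 30.3 CPM in pro-myeloid replicates 2, 3 and 4. The overlap came from pro-lymphoid replicate 5 and pro-myeloid replicate 2, and the log2 fold change was 0.60 (SE 0.26, edgeR adjusted p = 0.103). Bub1b, which encodes the checkpoint protein BubR1, had 262, 232 and 248 CPM in pro-lymphoid libraries and 247, 158.5 and 165 CPM in pro-myeloid libraries (log2 0.38, SE 0.18, edgeR adjusted p = 0.140). Pro-myeloid replicates 3 and 4 were far below the other 4 libraries, in which Bub1b was close to level.

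The checkpoint kinase Bub1 averaged 101 ± 7.83 CPM in pro-lymphoid and 70.9 ± 28.6 CPM in pro-myeloid libraries (edgeR adjusted p = 0.186). Mad2l1, which encodes the APC/C inhibitor Mad2, averaged 114 ± 12.9 CPM in pro-lymphoid and 83.8 ± 23.7 CPM in pro-myeloid libraries (edgeR adjusted p = 0.148). Without pro-myeloid replicate 2, Ttk, Bub1b and Bub1 passed at edgeR adjusted p of 0.0192, 0.00567 and 0.0267. Without pro-myeloid replicate 3 none of them passed, at edgeR adjusted p of 0.183, 0.320 and 0.298 in the same order. Their log2 fold changes there were 0.37, 0.26 and 0.24.

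Among the genes of anaphase and mitotic exit, all 4 had a log2 fold change above 0 (median 0.46) and 1 rose. Espl1, which encodes separase, had 172, 139 and 151 CPM in pro-lymphoid replicates 1, 5 and 6, against 117, 61.1 and 73.8 CPM in pro-myeloid replicates 2, 3 and 4. It rose 1.83-fold (log2 0.87, SE 0.24, edgeR adjusted p = 0.0244), and it lies on chromosome 15 from 102296293 to 102324356. The call was lost in edgeR without pro-lymphoid replicate 1 (adjusted p = 0.0680) or 6 (0.0668) and without pro-myeloid replicate 3 (0.0542) or 4 (0.0895), at log2 fold changes of 0.69 to 0.89. Pttg1, which encodes securin, the protein that holds separase inactive, averaged 24.2 ± 1.99 CPM in pro-lymphoid and 16.8 ± 3.501 CPM in pro-myeloid libraries without overlap (edgeR adjusted p = 0.0614, or 0.0136 without pro-myeloid replicate 2). Without pro-myeloid replicate 3 the edgeR adjusted p of Pttg1 was 0.139.

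Cdc20, the activator of the APC/C in early mitosis, had the smallest difference of this group, with 123, 132 and 143 CPM in pro-lymphoid libraries and 124, 87.0 and 113 CPM in pro-myeloid libraries (log2 0.30, SE 0.15, edgeR adjusted p = 0.155). Pro-myeloid replicate 2 was level with pro-lymphoid replicate 1. Ube2c, the ubiquitin-conjugating enzyme of the APC/C, averaged 174 ± 24.7 CPM in pro-lymphoid and 132 ± 26.0 CPM in pro-myeloid libraries (edgeR adjusted p = 0.117).

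None of the 3 genes of spindle motors and assembly passed the edgeR test, either at the adjusted threshold or at an unadjusted p under 0.05, and 0 passed by DESeq2 and by limma-voom. Their median log2 fold change was 0.26. Tpx2, which nucleates spindle microtubules and activates Aurka, had 204.6, 218 and 230.3 CPM in pro-lymphoid replicates 1, 5 and 6, against 198, 110.1 and 161 CPM in pro-myeloid replicates 2, 3 and 4. The groups did not overlap, but the log2 fold change of 0.48 (SE 0.20) had an edgeR adjusted p of 0.104, or 0.0199 without pro-myeloid replicate 2. Without pro-myeloid replicate 3 the log2 fold change of Tpx2 was 0.28 (edgeR adjusted p = 0.160). Kif2c, a kinesin that takes apart microtubule ends, had 72.3, 66.9 and 70.0 CPM in pro-lymphoid libraries and 73.4, 42.3 and 59.7 CPM in pro-myeloid libraries (log2 0.25, SE 0.19, edgeR adjusted p = 0.336). Kif11, the motor that pushes spindle poles apart, averaged 296 ± 18.0 CPM in pro-lymphoid and 248 ± 58.5 CPM in pro-myeloid libraries (edgeR adjusted p = 0.291). For Kif2c and Kif11 the highest pro-myeloid library, replicate 2, reached the pro-lymphoid level.

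The central spindle and cytokinesis genes held both the largest difference of the 42 and 2 of the 4 members that did not lean to the pro-lymphoid side. Kif23, the kinesin of the centralspindlin complex that organises the midbody, had 103.6, 157 and 124.5 CPM in pro-lymphoid replicates 1, 5 and 6, against 73.6, 54.2 and 59.6 CPM in pro-myeloid replicates 2, 3 and 4. Every pro-lymphoid library was far above every pro-myeloid library. It rose 2.06-fold (log2 1.04, SE 0.19, edgeR adjusted p = 0.00470), and it lies on chromosome 9 from 61917278 to 61946799.

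Prc1, which bundles the microtubules of the same central spindle, had 107, 114 and 112 CPM in pro-lymphoid libraries and 129, 89.9 and 116 CPM in pro-myeloid libraries. The pro-lymphoid values lay within the pro-myeloid range, and the log2 fold change was -0.01 (SE 0.15, edgeR adjusted p = 0.955), with a sign that changed between settings. Anln, which encodes the contractile ring protein anillin, had 103, 96.9 and 83.3 CPM in pro-lymphoid libraries and 128, 75.2 and 103 CPM in pro-myeloid libraries (log2 -0.11, SE 0.20, edgeR adjusted p = 0.686), and its sign also turned without pro-myeloid replicate 2. Kif20a, a kinesin that carries the passenger complex to the midzone, averaged 95.5 ± 4.34 CPM in pro-lymphoid and 76.5 ± 30.8 CPM in pro-myeloid libraries (edgeR adjusted p = 0.391). In the counting annotation, 33.3% of the exon bases of Kif20a are shared with Brd8 or Cdc23, so its count is uncertain. Thus 1 of these 4 passed, and the median log2 fold change of the group, 0.15, was the lowest of the role groups.

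The genes of chromosome structure held members called in opposite directions, within 1 complex. Ncapd2, the regulatory subunit of condensin I, had 502, 505 and 518 CPM in pro-lymphoid replicates 1, 5 and 6, against 348, 224 and 297 CPM in pro-myeloid replicates 2, 3 and 4. Its pro-lymphoid values were almost level and far above all pro-myeloid values. It rose 1.75-fold (log2 0.81, SE 0.17, edgeR adjusted p = 0.00853), and it lies on chromosome 6 from 125168007 to 125191586.

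Smc4, an ATPase of the core shared by condensin I and II, had 377, 449 and 449 CPM in pro-lymphoid libraries, against 641, 519 and 585 CPM in pro-myeloid libraries. All pro-lymphoid libraries were below all pro-myeloid libraries, and pro-myeloid replicate 3, the lowest library for most members, was here above the whole pro-lymphoid range. The gene fell by 0.45 on the log2 scale (SE 0.14, edgeR adjusted p = 0.0342), and it lies on chromosome 3 from 69004972 to 69034623. The Smc4 call was lost in edgeR without pro-lymphoid replicate 1 (adjusted p = 0.0985), 5 (0.0781) or 6 (0.0859) and without pro-myeloid replicate 2 (0.0623) or 4 (0.0937). Smc2, its partner in the core, averaged 153 ± 18.9 CPM in pro-lymphoid and 136 ± 39.9 CPM in pro-myeloid libraries (log2 0.16, SE 0.22, edgeR adjusted p = 0.578), and its log2 fold change was -0.03 without pro-myeloid replicate 3. Of the other condensin subunits, picked after their values were seen, Ncaph of condensin I averaged 120.5 ± 3.39 CPM in pro-lymphoid and 83.6 ± 18.9 CPM in pro-myeloid libraries (log2 0.53, edgeR adjusted p = 0.0411). The Ncaph call was lost in each edgeR fit that left out 1 library other than pro-myeloid replicate 2, with adjusted p of 0.0703 to 0.118. Ncapg, also of condensin I, had a log2 fold change of -0.19 (edgeR adjusted p = 0.518), or -0.40 with an adjusted p of 0.0335 without pro-myeloid replicate 3. For Ncaph2, Ncapd3 and Ncapg2 of condensin II it was 0.34, 0.19 and 0.35, and none of these 3 passed.

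Mki67 and Top2a, the members with the highest CPM and widely used proliferation markers, did not pass the test. Mki67, which coats mitotic chromosomes, had 926, 623 and 738 CPM in pro-lymphoid replicates 1, 5 and 6, against 990.0, 477 and 514 CPM in pro-myeloid replicates 2, 3 and 4. The highest of the 6 values was in a pro-myeloid library, and the log2 fold change was 0.21 (SE 0.30, edgeR adjusted p = 0.618). Top2a, the topoisomerase that untangles sister chromatids, had 920.5, 1008 and 1003 CPM in pro-lymphoid libraries and 947, 532 and 768 CPM in pro-myeloid libraries (log2 0.38, SE 0.21, edgeR adjusted p = 0.195). Pro-myeloid replicate 2 lay above the pro-lymphoid range for Mki67 and within it for Top2a. Without that library Mki67 passed at 0.62 (adjusted p = 0.0360) and Top2a at 0.59 (adjusted p = 0.0409) in edgeR. In the other fits that left out 1 library neither gene passed. Their log2 fold changes there ran from 0.018 to 0.34 for Mki67 and from 0.19 to 0.43 for Top2a, both lowest without pro-myeloid replicate 3.

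Per length, the members spanned a wide range of levels within each culture. Expressed as mean CPM per kilobase of exon (FPKM), Ube2c and Top2a were highest in pro-lymphoid culture at 187.3 FPKM each, followed by Cenpa at 119 and Ncapd2 at 113 FPKM. In pro-myeloid culture Top2a, Smc4 and Ube2c were highest, at 143.5, 142.5 and 142 FPKM. Cenpf was lowest in pro-lymphoid culture at 9.09 FPKM, followed by Cdc25c at 11.1 FPKM, whereas in pro-myeloid culture Cdc25c and Cenpf were level at 6.34 and 6.35 FPKM.

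Other genes of mitosis, listed from textbook knowledge, leaned the same way. Of 112 listed genes 107 were found in the table and tested, 92 had a log2 fold change above 0 (86.0%), and their median was 0.32. By edgeR, 28 rose (26.2%, against 17.4% of all genes) and 0 fell, with 3 lower at an unadjusted p under 0.05, 2 lower by DESeq2 and 0 lower by limma-voom. The count that rose was 12, 7 and 6 without pro-lymphoid replicate 1, 5 and 6, and 44, 14 and 12 without pro-myeloid replicate 2, 3 and 4. In these fits 14.7%, 11.5%, 10.2%, 19.4%, 13.2% and 11% of all genes rose. Each count without a pro-lymphoid library was a smaller share of the 107 than that. The counts without pro-myeloid replicate 3 or 4 were near it, and only the count without pro-myeloid replicate 2 was clearly above it. Without pro-myeloid replicate 2 or 3, 1 and 2 of them fell. All pro-lymphoid libraries were above all pro-myeloid libraries for 41 of the 107 (38.3%, against 26.4% of all genes).

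By role, against 17.4% of all genes, 10 of 30 other kinetochore and checkpoint genes rose (33.3%, median log2 fold change 0.41), led by the inner kinetochore genes Cenph and Cenpc1. Cenph averaged 48.1 ± 5.73 CPM in pro-lymphoid and 20.9 ± 4.88 CPM in pro-myeloid libraries (log2 1.2, edgeR adjusted p = 0.00372). Cenpc1, which links CENP-A chromatin to the outer kinetochore, averaged 60.7 ± 1.91 CPM in pro-lymphoid and 36.5 ± 5.26 CPM in pro-myeloid libraries (log2 0.73, edgeR adjusted p = 0.00560). Of 29 other spindle and cytokinesis genes 9 rose (31%, median 0.37), led by Fam64a at 36.7 ± 0.172 CPM in pro-lymphoid and 21.7 ± 4.33 CPM in pro-myeloid libraries (adjusted p = 0.0115) and the kinase Melk at 53.1 ± 8.27 and 30.9 ± 6.65 CPM in the same order (adjusted p = 0.0190). These 4 genes kept their calls in every edgeR fit without 1 library, except Melk without pro-lymphoid replicate 5 (adjusted p = 0.0654) or 6 (0.0597).

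Of 16 other G2 regulators and MuvB subunits 4 rose (25%, against 17.4% of all genes, median 0.29), led by the phosphatase Cdc25a at 121.6 ± 10.04 CPM in pro-lymphoid and 71.0 ± 18.0 CPM in pro-myeloid libraries (edgeR adjusted p = 0.0180) and by Gtse1 at 77.9 ± 7.29 and 45.2 ± 12.6 CPM in the same order (edgeR adjusted p = 0.0228). Of 16 other condensin and cohesin genes 3 rose (18.8%, near that background, median 0.21), led by Cdca5, which encodes the cohesin protector sororin (log2 0.64, edgeR adjusted p = 0.0184), and the cohesin regulator Pds5b (log2 0.68, adjusted p = 0.0283). Of 16 APC/C subunits and regulators 2 rose (12.5%, below that background, median 0.14), namely Fzr1, which encodes the late activator Cdh1 (log2 0.46, edgeR adjusted p = 0.0325), and the subunit Cdc27 (log2 0.74, adjusted p = 0.0347). Each of these 6 calls was lost in edgeR without some single libraries, among them pro-lymphoid replicate 5 or 6, with adjusted p of 0.0547 to 0.114.

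DNA replication and G1/S genes, which act before mitosis, leaned the same way. Of 38 tested, 35 had a log2 fold change above 0, the median was 0.56, 14 rose (36.8%, against 17.4% of all genes) and 1 fell, and 28 (73.7%, against 26.4% of all genes) had all pro-lymphoid libraries above all pro-myeloid libraries. The count that rose was 25 by DESeq2 (20.2% of all genes) and 23 with upper-quartile scaling (20% of all genes). It was 9 and 8 without pro-lymphoid replicate 5 and 6 (11.5% and 10.2% of all genes), and 2 fell without pro-myeloid replicate 3. The licensing factor Cdt1 averaged 178 ± 10.2 CPM in pro-lymphoid and 107 ± 12.02 CPM in pro-myeloid libraries (log2 0.73, edgeR adjusted p = 0.00315). E2f2, an E2F transcription factor, was the gene that fell, at 80.2 ± 12.6 CPM in pro-lymphoid and 180.2 ± 39.5 CPM in pro-myeloid libraries (log2 -1.17, edgeR adjusted p = 0.00349). The median deviation of this list was 0.16, 0.36 and 0.33 in pro-lymphoid replicates 1, 5 and 6 and -0.06, -0.64 and -0.09 in pro-myeloid replicates 2, 3 and 4. Pro-myeloid replicate 3 was thus the low library for this list as for the 42 mitosis genes, while in pro-myeloid replicate 2 this list lay below all pro-lymphoid libraries and the mitosis genes, at 0.12, lay close to pro-lymphoid replicate 1. Whether the mitosis genes and the replication genes differed from each other was not tested.

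**Figure D4:**
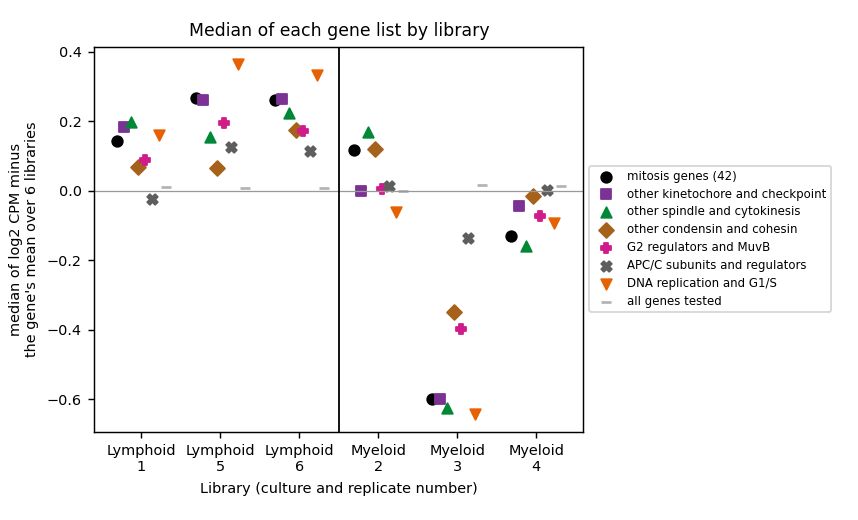
Median of log2 CPM minus each gene's mean over the 6 libraries, for the 42 mitosis genes, 6 other gene lists and all genes tested, by library, with pro-lymphoid left of pro-myeloid. All 7 gene lists lie lowest in pro-myeloid replicate 3, the mitosis genes at -0.60, while all genes tested stay near 0 in every library.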

How the data were processed

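Per the labels, RNA of MLL-AF9 transformed mouse HSPCs from pro-lymphoid (3 libraries) and pro-myeloid culture (3 libraries) was extracted in Trizol, enriched by poly(A) selection, built into unstranded NEBNext Ultra libraries and read single-end. The authors deposited raw read counts per gene; per the file headers, featureCounts 1.5.1 counted primary alignments over mm10 exons without strand, and the table also holds each gene's exon length, a deposited value used here for levels per length. The submitters' processing notes also name Trimmomatic, Bowtie, TopHat and DESeq2, their settings being not given in the sources used here. Without strand, counting can mix overlapping genes, and primary alignments can assign reads of near-identical copies to either copy. In the counting annotation 37 of the 42 members share no exon base with another gene, and the others are Kif20a (33.3%), Ccna2 (13.4%), Foxm1 (2.06%), Cdc20 (0.897%) and Ccnf (0.258%).

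Genes were tested with edgeR 4.0.16 in R 4.3.3 (filterByExpr, TMM factors 0.961 to 1.05, quasi-likelihood F test, two-sided, no covariates, Benjamini-Hochberg adjustment at 0.05 over the 12477 genes that passed the filter). Each SE is the absolute log2 fold change over the square root of F. CPM were scaled by TMM, and 3 counts in a library equal 0.0642 to 0.0858 CPM. Values after ± are the SD over 3 libraries, the spread among them and not the error of the mean. Alternatives were DESeq2 1.42.0, limma 3.58.1 with voom, other scaling factors and filters, an adjusted p of 0.01, an older quasi-dispersion in edgeR and leaving out each library. The members, the gene lists and the tests were chosen with earlier results of these data known. By role, the members with the highest and lowest log2 fold change were given in every library, with Mki67, Top2a, Ccnb1, Cdk1, Foxm1, Plk1, Aurkb and the called Cenpa and Nuf2. Of each other list the 2 genes with the smallest adjusted p were named.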

Additional observations from a re-analysis of the deposited data

How the results depend on the processing

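Across 15 alternatives for each of the 42 members, 560 comparisons kept direction and side of the threshold, 33 newly passed (18 members), 29 no longer passed (6 members) and 8 changed sign (3 members). Members that rose numbered 8 in edgeR with TMM, 15 with upper-quartile scaling, 13 with DESeq2, 3 at an adjusted p of 0.01 and 4 to 24 when 1 library was left out. Members that fell numbered 0 at 0.01 and 0 to 1 when 1 library was left out, against 1. At 0.01, 995 of all genes rose (7.97%) and 1610 fell, and 1298 to 2478 rose (10.2% to 19.4%) when 1 library was left out. Of the 107 other mitosis genes 2 rose at 0.01, a smaller share than the 7.97% of all genes. With DESeq2 2 of them fell, and 6 to 44 rose and 0 to 2 fell when 1 library was left out. Of the replication genes 23 rose with upper-quartile scaling, 25 with DESeq2, 4 at 0.01 and 8 to 20 when 1 library was left out, when 1 to 2 fell. The log2 fold change of Prc1 was 0.039 with upper-quartile scaling, 0.028 without scaling factors, 0.0031 with limma-voom and -0.15 to 0.10 when 1 library was left out; that of Anln ran from -0.29 to 0.083 and that of Smc2 from -0.033 to 0.39. Upper-quartile scaling shifted the median of all genes by less than 0.05. The older quasi-dispersion, an alternative chosen after seeing the data, gave 7 members that rose. Apart from the fewer libraries of a left-out fit, the cause of these changes was not tested. No paired analysis was made, because the labels number the libraries of both groups in a single series and name no pairs. With 3 libraries a group and unknown culture origin, small differences could be missed. Beyond the values by library and the fits that left out 1 library, groups of 3 were not examined for single deviating values.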
